A study of Mus musculus with 12 samples.

Results

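Tumors of a liver cancer cell line growing under the skin were compared with livers in which MYC drives tumors, all from mice that ate a diet without tryptophan (No Trp diet) for 21 days. The members were all RNA-seq libraries of those groups in the series, 3 xenografts (mice 35, 36 and 37) and 3 livers (mice 105, 107 and 108), 6 of 12 libraries in all. The livers came from male FVB mice (FVB MYC ON), in which the liver promoter of LAP-tTA drives a tetracycline-controlled human MYC transgene (TRE-MYC). Breeders drank water with 1 mg/mL doxycycline, and its withdrawal at birth switched the transgene on. The xenografts grew from HCC53N cells injected into the flanks of female NOD SCID mice (NOD-SKID in the labels), which lack B and T lymphocytes. HCC53N is a single mouse line made from Alb-Cre p53 fl/fl liver tumors with mutant Nras. The labels also give the tumor cells as FVB MYC ON, and whether they carry the transgene was not settled here. Each library is from a mouse of its own. The labels state an age only for males in a comparison with wild type mice, and the ages of the livers and hosts used here were not settled. The study describes fewer and smaller tumors in MYC-ON livers on this diet. The share of tumor tissue in the 3 livers used here was not measured. The groups therefore differ in oncogenic drivers, site of growth, strain, sex and immune status of the host and a culture history. They may also differ in age and in the share of tumor tissue. The parts of these in any difference cannot be told apart.

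Hepatocytes make most plasma proteins, lipoproteins and bile acids, turn ammonia into urea and degrade surplus amino acids. Tryptophan is opened to kynurenine in hepatocytes by tryptophan dioxygenase (Tdo2), while many other cells use the indoleamine dioxygenases Ido1 and Ido2. Cells short of an amino acid activate the integrated stress response through the transcription factor ATF4, which raises amino acid transporters and synthetic enzymes. Tryptophan metabolites can act as ligands of the aryl hydrocarbon receptor (AHR). Mutant RAS proteins signal through ERK kinases to AP-1 and ETS factors, and loss of p53 removes the main activator of the cell cycle inhibitor p21. Differentiated hepatocytes keep their program through factors such as HNF4A and CEBPA.

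The genes altered in the tumor models were examined first. Trp53 and Nras are those that the study names for HCC53N, and MYC is named in the labels. Values are read counts scaled to a common library size, called normalized counts, and fold changes are xenograft over liver. Trp53, which encodes p53 (GRCm38.p6, chromosome 11), stood at 1416, 1030 and 1664 normalized counts in livers 105, 107 and 108, and at 479, 373 and 373 in xenografts 35, 36 and 37. It was lower in the xenografts, by a log2 fold change of −1.75 ± 0.22 (SE, adjusted p = 0.000203), and reads remained in all 3 tumors. Host cells in the tumors carry the gene, and counts per gene do not show in which exons the reads lie. Nras had 1464, 1030 and 1295 in the livers and 4887, 5578 and 8159 in the xenografts, a log2 difference of 2.30 ± 0.24 (adjusted p = 7.21e-05). The counts do not separate the mutant from the normal transcript. Mouse Myc had 736, 1679 and 2807 in the livers and 3467, 3851 and 4563 in the xenografts. Its difference of 1.19 ± 0.41 (adjusted p = 0.0335) did not pass the test without liver 105 (0.76) or 107 (1.15), or without xenograft 35 (1.28), 36 (1.20) or 37 (1.08). Reads of the human transgene were not counted as such. All 3 genes separated the groups without overlap. Xist, expressed from the inactive X chromosome of females, was higher in the xenografts by 3.61, and the Y-linked genes Ddx3y, Eif2s3y, Kdm5d and Uty were lower by log2 values between −6.55 and −7.02. The hosts were female and the liver mice male, and the sex of origin of the HCC53N cells was not settled here.

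Between 14865881 and 23751118 reads lay on genes in the livers and between 20688502 and 26085349 in the xenografts. The 10 most abundant genes took 9.51% to 15.4% of liver reads and 4.15% to 4.81% of xenograft reads. Liver 107 stood apart from the other livers, with the highest albumin level and low Afp, H19 and cell division genes (below beside each result). The estimated spread between mice was 29.1% of a gene's level in the livers and 27.1% in the xenografts. A mark of resubmission in the deposit falls on liver 108 alone among these 6 libraries, so that mark and the mouse cannot be told apart. With 3 mice against 3, a permutation test of a single value cannot go below p = 0.1, so tests rest on the edgeR fit across all genes.

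Of 14783 genes tested, 3421 were called higher and 3063 lower in the xenografts. A call required an adjusted p no greater than 0.05 and a change of 1 or more, up or down, on the log2 scale. The called genes were 43.9% of those tested, with 23.1% higher and 20.7% lower. Groups did not overlap for 9995 genes, with 35.6% of genes higher and 32.0% lower in every xenograft than in every liver. The median log2 fold change over all genes tested was 0.06. By over 8-fold, 1223 genes were called higher and 1093 lower, and by over 100-fold, 57 higher and 329 lower. In the livers the most abundant transcripts were those of albumin (Alb, 4.02% of reads), Apoe, the elongation factor Eef1a1, Ahsg and C3. In the xenografts they were Eef1a1 (0.995%), the secreted chaperone clusterin (Clu, 0.627%), Eef2, keratin 8 (Krt8) and osteopontin (Spp1). The balance of calls depended on the scaling. With library totals the calls were 5517 higher and 1974 lower, so the higher share of calls moved from 52.8% to 73.7%, and the median of all genes shifted by 0.61.

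**Figure D1:**
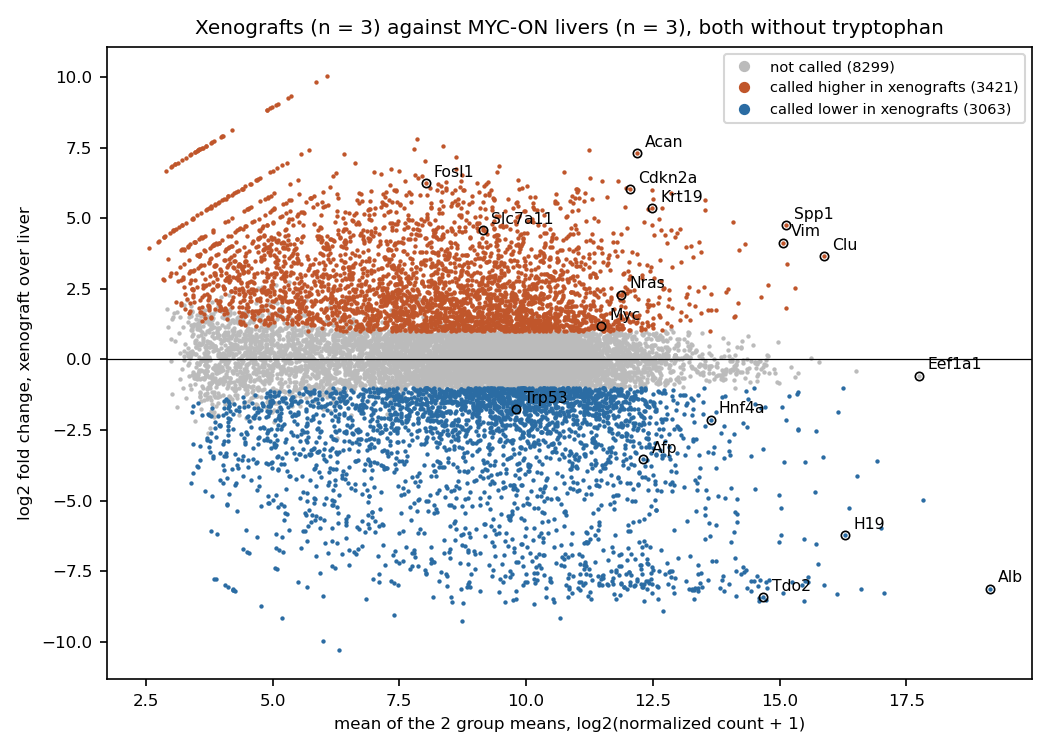
Log2 fold change of xenograft over liver (vertical axis) against the mean level (horizontal axis, log2 of normalized count + 1) for the 14783 genes tested, with 3 mice a group. Orange points are the 3421 genes called higher and blue points the 3063 called lower. The blue points reach down to a band between about −8 and −9 over the whole upper range of levels, in which Alb and Tdo2 lie, and the strips at the upper left are genes with no read in the livers.

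Promoter sequences were taken from RefSeq (GRCm38.p6), with a stretch from 250 bases before to 50 bases after the start of transcription of each gene, and were found for 11463 of the 14783 genes tested. The letters TGANTCA, which AP-1 factors bind and which read alike on both strands, occurred in 7.93% of all 27025 promoters (N is any base), 5.57% of those of tested genes, 7.15% of genes called higher and 6.30% of genes called lower. The share was 8.86% among genes higher and 8.46% among genes lower by at least 8-fold, and 9.38% among those lower by over 100-fold. Of 15 promoters of matrix metalloproteinases and their inhibitors, 5 held it (33.3%), and of 15 promoters of the RAS-ERK list none did. A match is a description of the letters in these windows. The 150 bases before the start are shown for 3 genes of matrix breakdown that were higher in the xenografts and hold these letters, marked in capitals. They are the stromelysin Mmp3 (chr9:7445672-7445821, plus strand), the collagenase Mmp13 (chr9:7272364-7272513, plus strand) and the urokinase receptor Plaur (chr7:24462333-24462482, plus strand). The capitals begin 46, 35 and 69 bases before the start, in this order.
Mmp3: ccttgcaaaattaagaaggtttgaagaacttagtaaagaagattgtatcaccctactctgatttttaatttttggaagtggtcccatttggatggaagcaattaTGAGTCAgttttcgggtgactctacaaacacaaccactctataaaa
Mmp13: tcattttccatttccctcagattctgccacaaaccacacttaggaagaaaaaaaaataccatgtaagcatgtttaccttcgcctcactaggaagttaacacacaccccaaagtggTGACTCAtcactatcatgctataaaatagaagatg
Plaur: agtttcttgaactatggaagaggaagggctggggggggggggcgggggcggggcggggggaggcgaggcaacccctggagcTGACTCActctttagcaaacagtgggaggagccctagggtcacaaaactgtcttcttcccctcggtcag

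The secreted products of hepatocytes were lower in the xenografts almost throughout, beside 20.7% of all genes. All 13 albumin and carrier protein genes tested were called lower (median log2 fold change −5.28), as were 17 of 18 apolipoprotein and lipoprotein assembly genes (−7.33), 20 of 21 coagulation factors (−7.57) and all 20 complement factors (−5.89). Alb had 865980, 1943800 and 665060 normalized counts in the livers and 6012, 4810 and 1718 in the xenografts, a log2 fold change of −8.11 ± 0.78 (adjusted p = 4.13e-05). Every liver lay far above every xenograft. Gc, the vitamin D-binding protein, stood at 141740, 215410 and 137310 in the livers and at 1770, 9057 and 1936 in the xenografts (−5.28 ± 0.73). Xenograft 36 held the most Gc among the tumors. F13b, the coagulation factor XIII B chain, had 6250, 9135 and 4807 in the livers and 41.9, 25.7 and 13.2 in the xenografts (−7.95 ± 0.47). Apob, the structural protein of very low density lipoprotein, was lower by less (−3.47 ± 0.50), with 4567 to 13801 normalized counts in the xenografts. The phospholipid transfer protein Pltp was not called (−0.89). Protein S (Pros1), an anticoagulant that endothelial cells make too, was called higher (1.21), but not without liver 108 (0.93). In bulk tissue, fewer cells of a type and less RNA per cell cannot be told apart.

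Among 18 liver-enriched transcription factors, 14 were lower and 1 higher, beside 20.7% and 23.1% of all genes. Their median was −4.46, and the sizes differed. The nuclear receptors Nr1i3 (−8.49) and Ppara (−7.79), which govern drug metabolism and fatty acid oxidation, were far lower, and Cebpa was lower by less (−3.77). Hnf4a stood at 19643, 25796 and 16828 in the livers and 3848, 6553 and 3800 in the xenografts (−2.13 ± 0.29, adjusted p = 0.000298), so the groups did not overlap and the tumors kept part of the level. Foxa2 was not called (0.53), although every xenograft lay above every liver, and the pioneer factor Foxa1 was higher (1.40).

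Many liver genes ended at a like remainder in the tumors. Of the 329 genes lower by over 100-fold, 238 had at least 1000 normalized counts in the livers. Their median level in xenografts 35, 36 and 37 was 0.655%, 0.510% and 0.284% of the liver mean, a share that the choice of genes keeps low. In the xenografts of mice on the complete diet, which the choice did not use, it was 0.265%, 0.678% and 0.685% (mice 41, 43 and 40). Among all 329 genes, 24 were at least 16-fold higher in No Trp livers than in complete-diet livers. In the complete-diet livers their medians were 0.864% to 2.25% of the No Trp liver mean, a share that the choice of these genes keeps low. In the complete-diet xenografts, which the choice did not use, these 24 genes stood at 0.137%, 0.590% and 0.580%. In the No Trp xenografts, where the choice also keeps the share low, they stood at 0.383%, 0.321% and 0.132%. Female hosts lack the 4 Y-linked genes, and the sex of origin of the HCC53N cells was not settled here. These genes stood at 1.11%, 0.638% and 0.815% of the liver level in the No Trp xenografts. The source of these reads was not tested. A fall of over 100-fold is measured against them, and the order among such falls should be read with that limit.

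**Figure D2:**
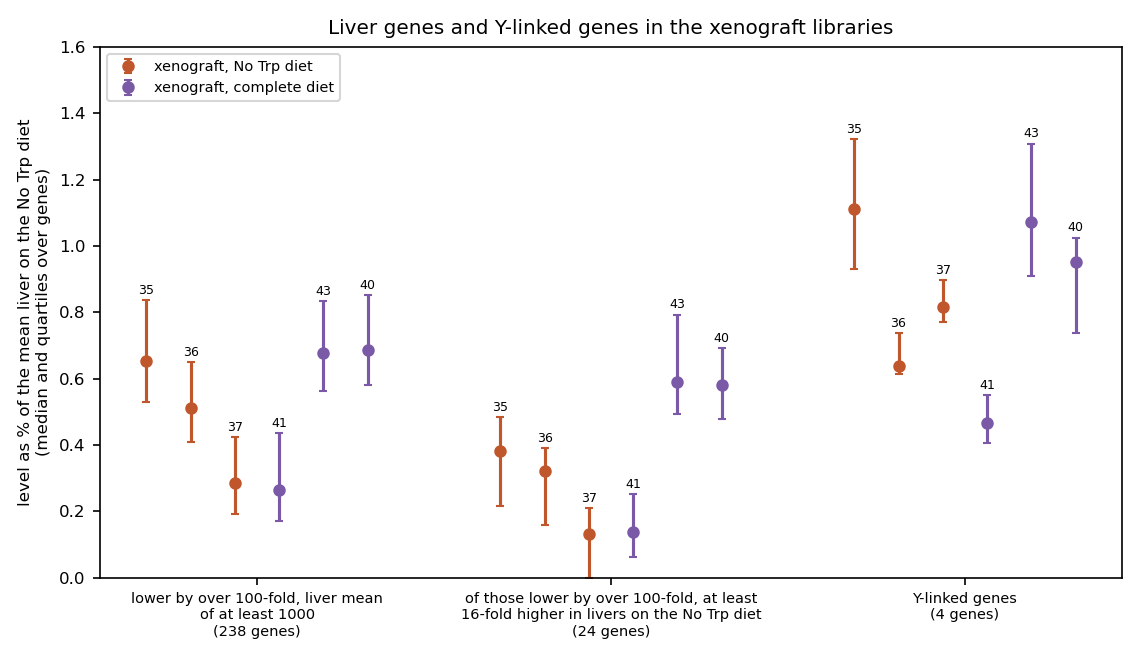
Level of liver genes in each xenograft library as a percentage of the mean No Trp liver (vertical axis). The left set holds 238 genes lower by over 100-fold with at least 1000 normalized counts in the livers. The middle set holds 24 of all genes lower by over 100-fold, those at least 16-fold higher in livers on the No Trp diet. The right set holds 4 Y-linked genes. Points are medians over genes and bars the quartiles, in orange for the No Trp diet and purple for the complete diet, with mouse numbers above. All medians lie between 0.132% and 1.11%, on both diets. The choice of the left and middle sets keeps their share low in the No Trp xenografts.

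Genes of tryptophan breakdown were mostly lower. Of 14 tryptophan catabolism genes tested, 12 were lower and 2 higher (median −5.33), beside 20.7% and 23.1% of all genes. Tdo2 had 43842, 65305 and 47487 normalized counts in the livers and 195, 149 and 110 in the xenografts (−8.43 ± 0.38, adjusted p = 1.43e-06). The next enzymes of the kynurenine pathway, Kmo (−6.34), Kynu (−6.31), Haao (−6.98) and Qprt (−7.31), were lower as well, and so was Ido2 (−5.54). Ido1 had 1.26, 4.07 and 22.2 in the livers and 23.6, 58.3 and 128 in the xenografts. This difference (2.998 ± 0.95, adjusted p = 0.0241) did not pass the test without liver 105 (2.40), liver 107 (2.63) or xenograft 37 (2.23). Tph1, the first enzyme of serotonin synthesis outside the brain, was higher (4.73 ± 1.09), with 18.7 to 101 normalized counts in the xenografts and reads in 1 liver only. The urea cycle was lower in all 9 genes tested (−4.67), led by Cps1 (−7.97), which takes up ammonia.

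Of 24 amino acid transporters, 7 were higher and 7 lower, with a median of 0.23, which is not far from the 23.1% and 20.7% of all genes. With library totals 11 were higher and 6 lower. The large neutral amino acid transporter Slc7a5, which carries tryptophan, had 1241, 363 and 1474 in the livers and 1849, 3787 and 4336 in the xenografts (1.70 ± 0.50, adjusted p = 0.0179). The glutamine carrier Slc1a5 was higher by a like amount (1.73 ± 0.51). Liver 107 was the lowest of the livers for both. Without xenograft 37 neither passed the test (1.46 and 1.55), and the list then held 4 higher and 7 lower. The cystine carrier Slc7a11 had 15.2, 23.0 and 101 in the livers and 528, 1856 and 857 in the xenografts (4.59 ± 0.75). The system A and N carriers of hepatocytes, Slc38a4 (−7.67) and Slc38a3 (−7.83), were lower. In the integrated stress response list 8 of 34 genes were higher and 4 lower (median 0.59), near the background of 23.1% and below that of 20.7%. The stress factors Nupr1 (3.27) and Ddit3 (1.62) were higher, and Fgf21, a hormone that the liver secretes in amino acid shortage, was lower (−6.15). Asparagine synthetase (Asns) overlapped between the groups (0.63 ± 0.54). Atf4 itself was called higher (1.09), but not without liver 105 (0.98), liver 108 (0.91) or xenograft 36 (0.70). The list had 4 higher genes without liver 105, 5 without xenograft 36, and 18 with library totals.

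Of 11 AHR genes, 4 were higher and 3 lower, beside 23.1% and 20.7% of all genes, and their median (−0.25) turned to 0.41 with library totals. Aldh3a1, an aldehyde dehydrogenase that AHR induces, had 18.9, 20.3 and 6.84 in the livers and 1612, 815 and 967 in the xenografts (6.15 ± 0.43, adjusted p = 7.27e-06). Cyp1b1 (4.47) and Tiparp (2.03), also AHR targets, were higher in every xenograft than in every liver. Cyp1a1 was low in both groups, with at most 31.2 in a liver and 20.8 in a xenograft (−0.25), while the hepatocyte enzyme Cyp1a2 was lower (−7.29). Ahr itself had 1109 to 1242 in the livers and 2039 to 2368 in the xenografts, a difference of 0.91 ± 0.14 that missed the size threshold but reached it with library totals (1.53) and upper-quartile factors (1.07).

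Genes of fatty acid oxidation, glucose release, bile acids and drug metabolism were lower, and those of lipid synthesis were mixed. Among all genes tested, 23.1% were higher and 20.7% lower. All 30 fatty acid oxidation genes were called lower (median −3.29), among them the fatty acid hydroxylase Cyp4a14 (−8.54) and the mitochondrial carnitine transferase Cpt1a (−3.28). All 18 genes of gluconeogenesis and glycogen were lower (−4.97), including tyrosine aminotransferase (Tat, −8.54), G6pc (−7.93) and Pck1 (−6.52). Of 20 bile acid genes 18 were lower (−7.29), and Cyp7a1, the rate-limiting enzyme of bile acid synthesis, fell from 7264 to 8348 normalized counts in the livers to 25.7 to 35.1 in the xenografts (−8.05 ± 0.23). The list of 34 drug-metabolizing P450s held 33 lower genes (−7.92), and that of phase II conjugation 31 of 33 (−4.85). Many P450 genes have near-identical copies, so their separate counts are uncertain. In fatty acid synthesis 12 of 20 genes were lower and 1 higher, and 9 and 4 with library totals. The higher gene was the desaturase Scd2 (2.33), while fatty acid synthase (Fasn) overlapped between the groups (0.46). Of 25 cholesterol synthesis genes, 5 were higher and 7 lower, and the median of −0.38 turned to 0.21 with library totals. The list had 3 higher without liver 107 or xenograft 37, and 4 lower without xenograft 35 or 36. Squalene epoxidase (Sqle) was higher (1.55).

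Glycolysis moved the other way. Of 31 genes of tumor glycolysis and hypoxia, 18 were higher (58.1%) and 1 lower (3.23%), beside 23.1% and 20.7% of all genes. Their median was 1.18. The M-type pyruvate kinase Pkm had 7781, 3343 and 8113 in the livers and 49299, 57546 and 91380 in the xenografts (3.37 ± 0.42, adjusted p = 0.000195). The enolase Eno2 (4.82), the hexokinases Hk1 (3.93) and Hk2 (2.22) and the glucose transporter Slc2a1 (2.39) were higher, Bnip3 was lower (−1.65), and lactate dehydrogenase A (Ldha) overlapped between groups (−0.46). Of 44 oxidative phosphorylation genes 37 were lower and none higher, with a median of −1.44. With library totals 14 were lower (−0.84). Sdhb, a subunit of succinate dehydrogenase, was lower by 2.51 on the log2 scale, with no overlap. Of 76 mitochondrial ribosomal protein genes 36 were lower (−0.98), but 2 with library totals (−0.38). The 83 cytosolic ribosomal protein genes had 1 call in each direction (3 lower without liver 105, 4 without xenograft 37), and their median of −0.39 turned to 0.21 with library totals.

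Targets of RAS-ERK signalling were the most uniform rise among the lists of growth control. Of 24 genes, 21 were higher and none lower (87.5%, median 3.33), beside 23.1% of all genes. The AP-1 subunit Fosl1 had 6.31, 9.49 and 3.42 normalized counts in the livers and 345, 569 and 617 in the xenografts (6.25 ± 0.43, adjusted p = 6.04e-06). Areg, a ligand of the EGF receptor, had 63.1 to 65.1 in the livers and 2454 to 6331 in the xenografts. The chromatin protein Hmga2 (5.38), the ETS factor Etv4 (5.06), the ERK phosphatase Dusp6 (2.84) and cyclin D1 (Ccnd1, 3.97) were higher too. Egr1 was not called (−0.27). Liver 107 held 7346 normalized counts of it against 616 and 681 in the other livers and 1840 to 3388 in the xenografts, and without that liver the value was 1.86.

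Of 30 p53 targets 7 were higher and 9 lower, beside 23.1% and 20.7% of all genes. Its median of −0.21 turned to 0.37 with library totals. The p21 gene Cdkn1a had 3266, 2446 and 2910 in the livers and 715, 908 and 799 in the xenografts (−1.83 ± 0.18, adjusted p = 4.01e-05). Trp53inp1 was lower (−3.43), the death receptor gene Tnfrsf10b was higher (2.77), and the p53 ubiquitin ligase gene Mdm2 was not called (0.63). The Cdkn2a locus, which encodes the inhibitors p16 and ARF, differed by far more. Cdkn2a had 105, 149 and 127 in the livers and 7210, 9222 and 8507 in the xenografts (6.03 ± 0.23), and its neighbour Cdkn2b was higher by 5.44 ± 0.21. The counts do not separate the p16 and ARF transcripts.

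Of 40 genes that MYC activates, 3 were higher (7.5%), 5 lower (12.5%) and 32 not called, beside 23.1% and 20.7% of all genes. The median of −0.01 turned to 0.57 with library totals and to 0.14 with upper-quartile factors. Cyclin D2 (Ccnd2, 4.17) and Hk2 were the largest rises, spermidine synthase (Srm) was lower (−1.73), and nucleolin (Ncl, −0.51) and ornithine decarboxylase (Odc1, 0.46) overlapped between groups. In the MYC and MAX network, 4 of 13 genes were higher (30.8%) and 2 lower (15.4%). The glucose-sensing factor Mlxipl was lower (−5.31) and the MAX partner Mxd3 higher (2.02). Without liver 105 the network had 2 higher and 2 lower, and with library totals 7 and 2.

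Cell division genes were called higher in part, and the number of calls depended on single libraries and the scaling. Of 44 mitosis genes 21 were higher and 2 lower (median 1.16), and of 43 DNA replication genes 16 were higher and 3 lower (0.85). Without liver 107 there were 15 higher mitosis genes and 6 replication genes, and without xenograft 36 there were 13 and 10. The replication calls were then below or near the 23.1% of all genes. With library totals 33 mitosis genes were higher and 1 lower, and 29 replication genes were higher and 1 lower. The cytokinesis kinesin Kif23 had 280, 84.1 and 236 in the livers and 1588, 2640 and 2556 in the xenografts (3.50 ± 0.43). Anillin (Anln, 2.87), topoisomerase 2A (Top2a, 1.66) and the helicase subunit Mcm4 (2.14) were higher. The proliferation marker Mki67 had 1609, 451 and 1818 in the livers and 2270, 2500 and 2784 in the xenografts, a difference that was not called (0.96 ± 0.43). The kinetochore gene Spc24 (−1.85) and the nuclease gene Dna2 (−1.83) were lower.

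**Figure D3:**
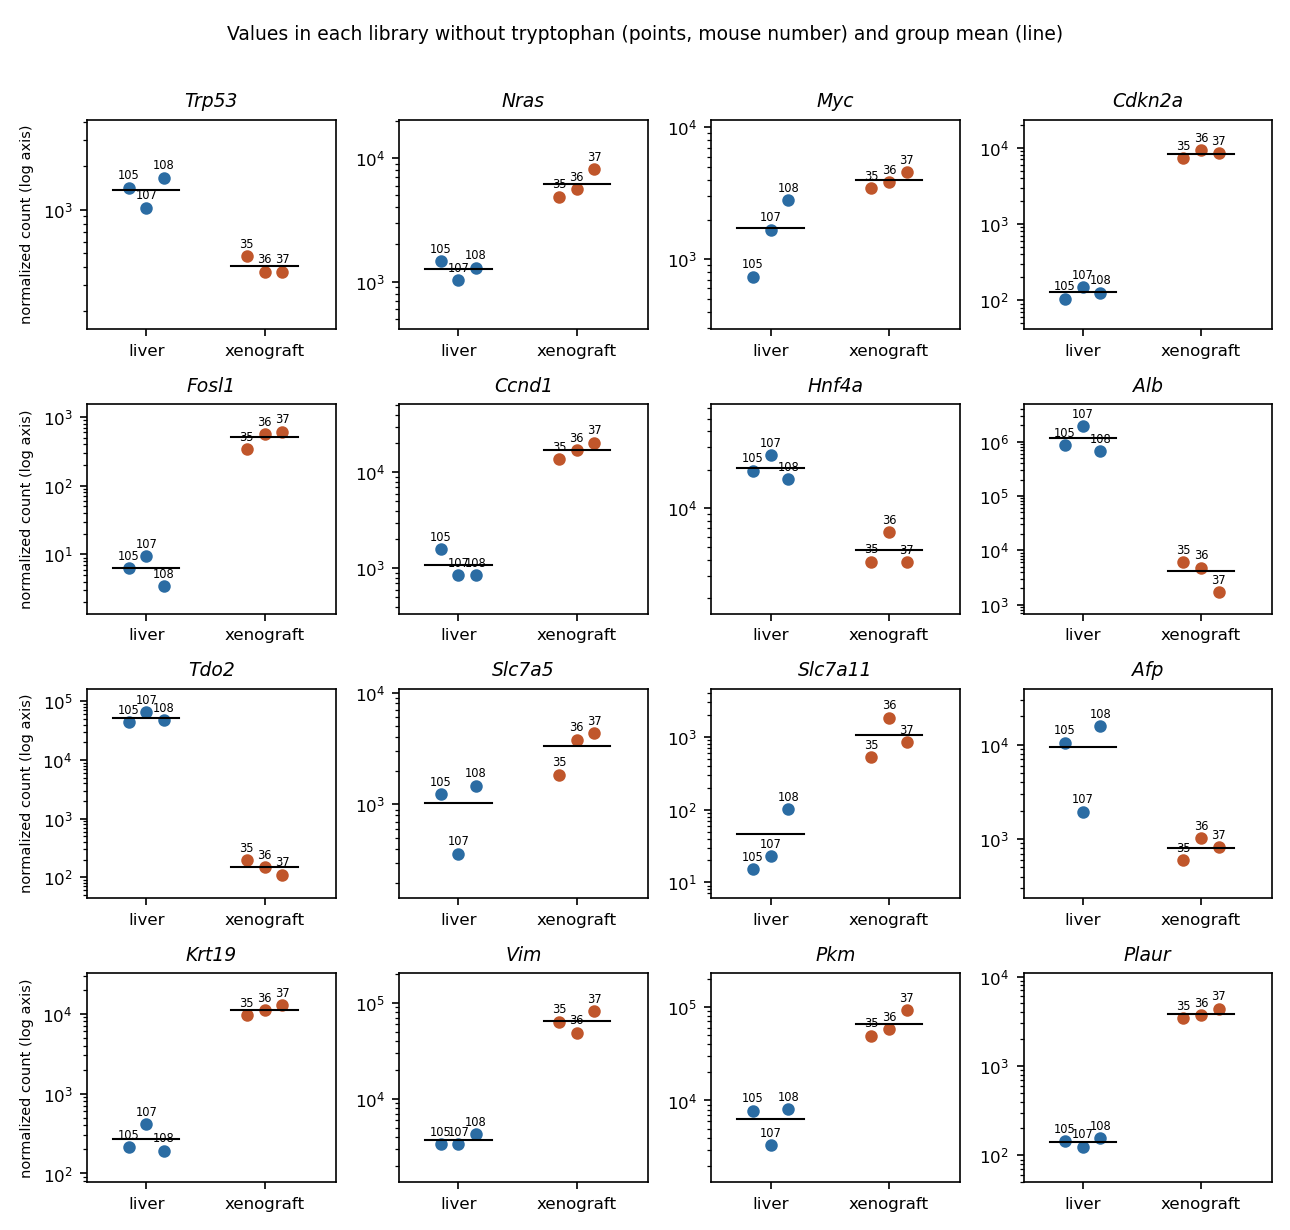
Normalized counts (vertical log axes) of 16 genes in each library without tryptophan, livers in blue and xenografts in orange, with the mouse number at each point and a line at the group mean. Trp53, Hnf4a, Alb, Tdo2 and Afp lie lower in all 3 xenografts, and the other 11 genes lie higher in all 3.

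Genes of the fetal liver split. Of 22 oncofetal genes, 11 were higher and 8 lower. Alpha-fetoprotein (Afp) had 10457, 1943 and 15663 in the livers and 592, 1025 and 815 in the xenografts (−3.53 ± 0.66, adjusted p = 0.00187). The imprinted genes H19 (−6.22), Igf2 (−6.45) and Dlk1 (−6.84) were lower, and liver 107 was the lowest liver for each. The progenitor and bile duct markers Krt19 and Sox9 were higher. Krt19 had 212, 415 and 193 in the livers and 9583, 11114 and 12898 in the xenografts (5.35 ± 0.35), and Sox9 was higher by 3.99 ± 0.22. The RNA-binding protein Igf2bp1 (5.35) and the surface glycoprotein Cd24a (4.75) were higher too. Of 12 bile duct markers 7 were higher and 2 lower.

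Structural and invasion genes were mostly higher. In the list of epithelial and mesenchymal genes, 15 of 24 were higher (62.5%) and 5 lower (20.8%), beside 23.1% and 20.7% of all genes. The median was 1.23, and members of both kinds rose. The mesenchymal filament vimentin (Vim) had 3376, 3371 and 4317 in the livers and 63889, 49149 and 81899 in the xenografts (4.14 ± 0.29), and S100a4 was higher by 4.23 ± 0.74. Epithelial Krt8 (2.53) and E-cadherin (Cdh1, 1.55) were higher as well. N-cadherin (Cdh2, −2.68), which hepatocytes express, and Cldn1 (−4.92) were lower. Of 21 keratins tested 14 were higher and 1 lower (2.63), and of 33 collagens 24 were higher and 5 lower (2.23). Without xenograft 36 or 37 the collagens had 3 lower. Among 22 matrix metalloproteinases and inhibitors 16 were higher and 1 lower (2.13), and 3 lower without xenograft 35. Plaur had 144, 125 and 156 in the livers and 3428, 3702 and 4374 in the xenografts (4.76 ± 0.19, adjusted p = 1.11e-06). The stromelysin Mmp3 (4.66), Mmp13 (2.47) and Mmp10 (2.07) were higher. Mmp7 had no read in any xenograft and was at least 44.1-fold lower, computed against 3 reads over the group. Of 22 patterning homeobox genes tested 13 were higher and none lower (2.41), such as Hoxc8 (3.65), at low levels of 57.4 to 84.6 normalized counts in the xenografts.

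Secreted signals were mostly higher. Of 27 cytokines and chemokines 21 were higher (77.8%) and 3 lower (11.1%), beside 23.1% and 20.7% of all genes. Their median was 2.84. The interleukin-6 family cytokine Lif had 39.2, 31.2 and 42.8 in the livers and 1033, 2414 and 1768 in the xenografts (5.53 ± 0.37). Cxcl14 (5.60), Csf2 (5.24) and Spp1 (4.75) were higher, and Cxcl12 lower (−3.31). Acute phase proteins, which hepatocytes secrete in inflammation, were lower in 16 of 20 genes and higher in 2 (−5.58), among the lower the iron hormone hepcidin (Hamp, −8.18). Without liver 105 none was called higher. The antigen presentation genes B2m (−2.35) and H2-K1 (−2.08), of class I, were lower, and the class II gene H2-Eb1 was higher (2.16). Of 30 interferon-stimulated genes 8 were lower (26.7%) and 1 higher (3.33%), beside 20.7% and 23.1% of all genes. Their median of −0.53 turned to 0.06 with library totals. Without liver 108 the list had 7 lower and 3 higher.

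**Figure D4:**
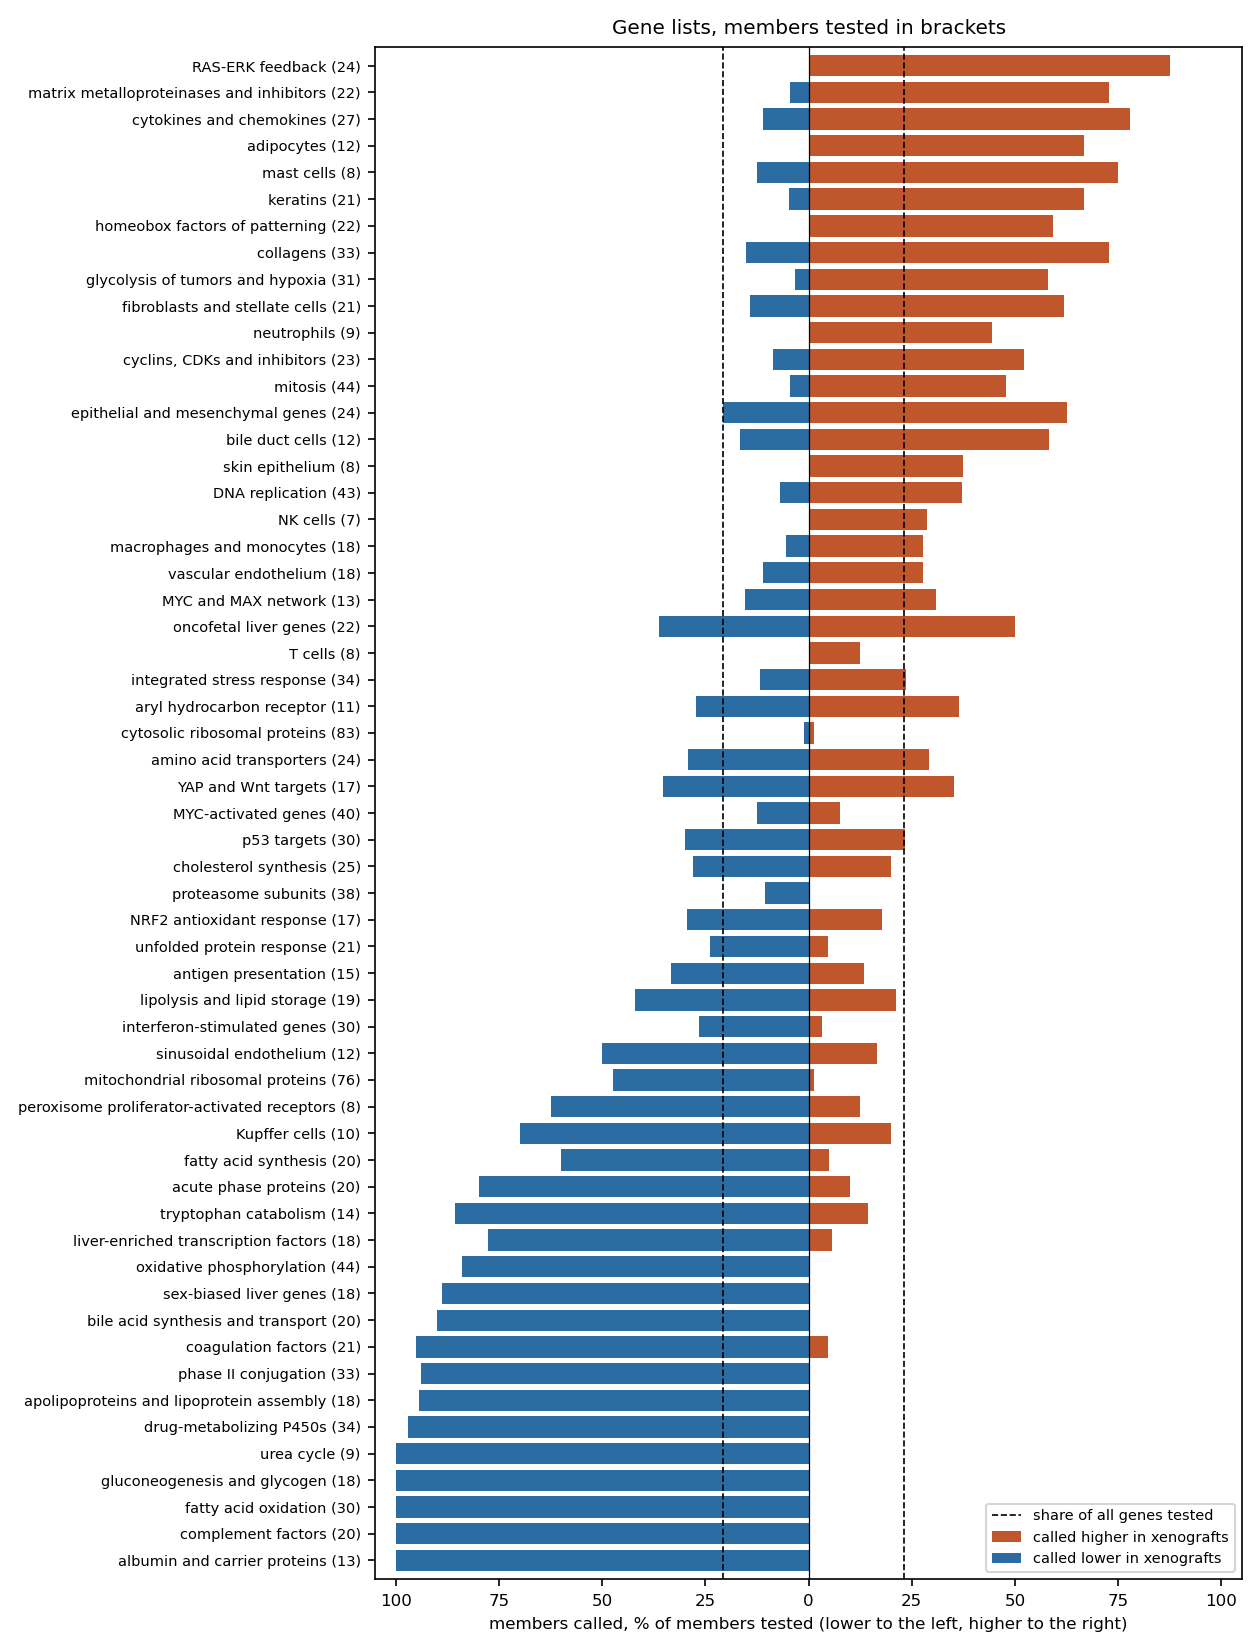
Share of the tested members of each gene list that were called higher (orange, to the right) or lower (blue, to the left) in the xenografts, with the number tested in brackets. Dashed lines mark the share over all genes, 23.1% higher and 20.7% lower. The hepatocyte and metabolism lists fill the left side, and RAS-ERK, cytokine, matrix and keratin lists the right.

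Markers of several other cell types in the tissues also differed, and their part in the results above was not tested. Over all genes, 23.1% were higher and 20.7% lower. Of 10 Kupffer cell markers, which label the resident macrophages of the liver, 7 were lower and 2 higher. Clec4f had 3545, 2407 and 4584 in the livers and 16.8, 14.6 and 9.71 in the xenografts (−7.98 ± 0.35), while Cd163 went the other way (2.17). The general macrophage marker Csf1r overlapped (−0.08). Of 18 macrophage and monocyte markers 5 were higher (27.8%), near the share of all genes, and 1 lower (5.56%). Itgam was among the higher (3.66). Sinusoidal endothelium had 6 of 12 markers lower, such as Clec4g (−7.68) and Stab2 (−5.46), and 2 higher. Of 21 fibroblast and stellate cell markers 13 were higher and 3 lower. Type I collagen (Col1a1) was higher (2.44), while Reln (−6.94) and the retinol-storing enzyme Lrat (−5.45), both of stellate cells, were lower. Of 8 mast cell markers 6 were higher and 1 lower, among the higher the IgE receptor chain Fcer1a (6.97) and chymase (Cma1, 5.05), both highest in xenograft 35. Of 8 T cell markers tested 1 was called. That was Ccr7, with 10.1, 12.2 and 13.7 in the livers and 109, 30.5 and 867 in the xenografts (4.80 ± 1.20), and it did not pass without liver 107 (4.81). Xenograft 37 held the highest summed T cell markers. None of 13 skeletal muscle markers was called, and their median of 0.04 turned to −0.0007 with RLE factors.

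Adipocyte markers were higher in the tumors. Of 12 tested, 8 were higher and none lower (median 3.04). Adipsin (Cfd) had 26.5, 31.2 and 25.7 in the livers and 4353, 2926 and 7068 in the xenografts (7.42 ± 0.41, adjusted p = 2.24e-06). Adiponectin (Adipoq, 6.75), resistin (Retn, 7.57) and the lipid droplet protein Plin1 (5.10) were higher. The sum of the 12 markers, on a scale common to all 12 libraries, was 11910 to 27070 in the No Trp xenografts and 3662 to 3802 in the No Trp livers. It was 698 to 2201 in the complete-diet xenografts. In the complete-diet livers 101, 102 and 103 it was 5467, 24670 and 4246, so liver 102 reached the range of the No Trp xenografts. The tumors grew under the skin, and the part of adjacent fat in these values was not tested.

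The largest rises among genes with a mean of at least 100 normalized counts include the glycosyltransferase gene B3galt2, which had no read in the livers and was at least 78.7-fold higher, against 3 reads over the group. By fitted fold change the others were led by the synaptic vesicle gene Synpr (7.81), Retn, Krt4 (7.46), the gel-forming mucin Muc5ac (7.43), Cfd and the cartilage proteoglycan aggrecan (Acan, 7.31). Acan had 56.8, 61.0 and 56.4 in the livers and 6922, 7007 and 13755 in the xenografts. The neuroendocrine factor Insm1 (7.18 ± 1.08) varied among the tumors, at 197, 439 and 1701. The largest falls include the sulfotransferase gene Sult2a6, with no read in the xenografts and at least 166-fold lower. The P450 genes Cyp4a31 (−9.25), Cyp3a59 (−9.14), Cyp2a5 (−8.89), Cyp3a41a (−8.66), Cyp2d13 (−8.58), Cyp2b13 (−8.57), Cyp2b9 (−8.56) and Cyp4a14 were among them, with the phosphate transporter family member Slc17a3 (−8.63), the carboxylesterase Ces1e (−8.59) and Tat.

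Over chromosomes, the medians of genes tested lay between −0.33 (chromosome 4, with 27.1% of genes lower) and 0.53 (chromosome 15, with 32.8% higher), leaving out the Y chromosome. On the complete diet the same chromosomes had medians of −0.36 and 0.49. These are descriptions with no test.

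The same models were also compared on the complete diet, in 6 other libraries that share no mouse with those above. There, 3266 of 14641 genes were higher (22.3%) and 3009 lower (20.6%). The genes called higher on both diets were 2409, which is 70.4% of the calls without tryptophan and 73.8% of those on the complete diet. The genes called lower on both were 1887, or 61.6% and 62.7%. In opposite directions, 41 genes were higher without tryptophan but lower on the complete diet, and 15 the reverse. The difference between the models was itself tested for change with diet over 15472 genes. It was more positive without tryptophan for 1036 genes (6.70%) and more negative for 930 (6.01%). Without complete-diet liver 103 these were 467 and 449, without complete-diet xenograft 43 they were 635 and 617, without xenograft 36 they were 682 and 612, without xenograft 37 they were 686 and 601, and without liver 107 the more negative ones were 522. With library totals they were 1825 and 437, so the positive share moved from 52.7% to 80.7%.

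By the share of genes that passed the test of the difference, the cell division lists stood far above the 6.70% of all genes. The median of the mitosis genes was −1.28 on the complete diet and 1.16 without tryptophan, and 42 of 44 were more positive by the test of the difference. For DNA replication the medians were −1.02 and 0.85, with 33 of 43 more positive. The summed level of the mitosis genes was 87440 to 97360 in complete-diet livers and 8189 to 31750 in No Trp livers, and 38080 to 42180 and 50540 to 62420 in the xenografts, so the larger move was in the livers. The MYC-activated genes had medians of −1.16 and −0.01, with 21 of 40 more positive, and 7 without complete-diet liver 103. Adipocyte markers had 8 of 12 more positive (−0.68 and 3.04). In the negative direction were 14 of 34 P450s (−4.73 and −7.92) and 14 of 30 fatty acid oxidation genes (−2.04 and −3.29). Without liver 107 there were 9 such P450s, and without complete-diet liver 103 there were 8 such oxidation genes.

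**Figure D5:**
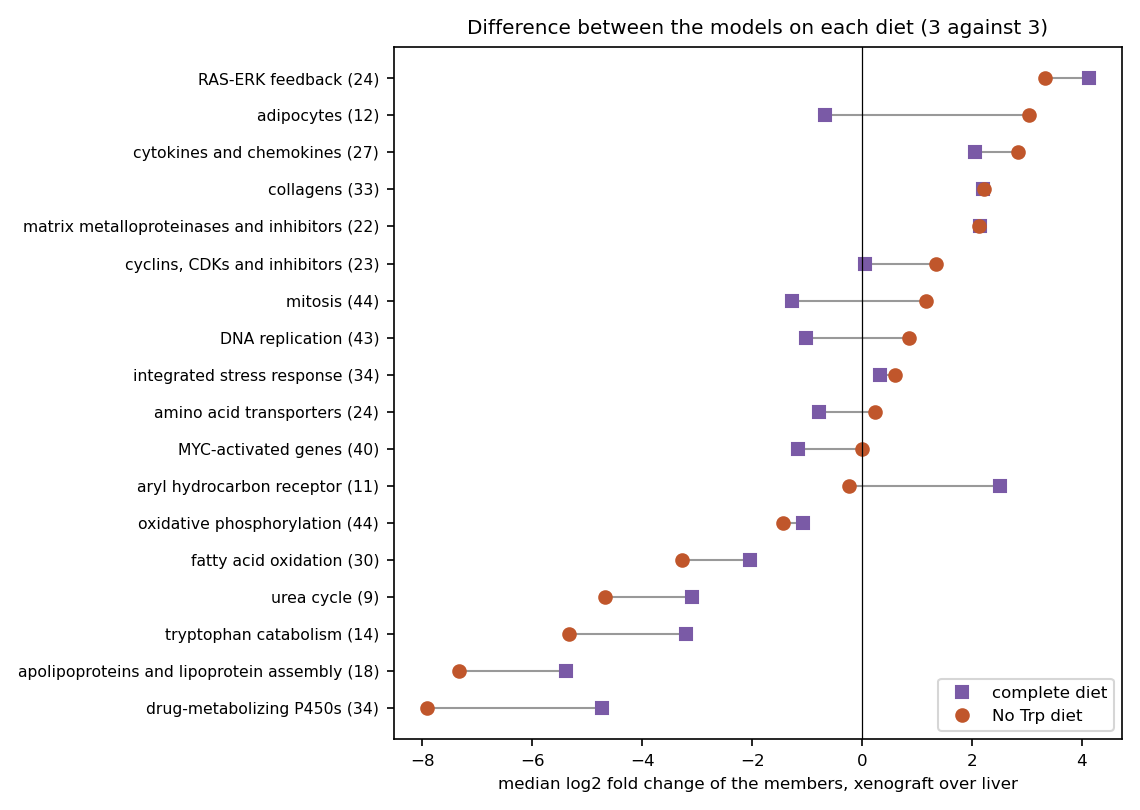
Median log2 fold change of xenograft over liver for the members of 18 gene lists (number tested in brackets), on the complete diet (purple squares) and without tryptophan (orange circles), each from its own comparison of 3 mice against 3. The mitosis and DNA replication medians lie below 0 on the complete diet and above 0 without tryptophan, and the P450 median moves from −4.73 to −7.92.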

How the data were processed

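Libraries were made from polyadenylated RNA. The deposited values are whole read counts per gene symbol, without normalization, which the authors made with HTSeq after trimming and alignment. The submitters' processing notes name Trim Galore, STAR 2.7.2b, SAMtools 1.9, HTSeq, Bowtie2 2.3.4.3, BWA 0.7.17 and DESeq2, with the builds mm10 and GRCm38.p6. The strand setting and the rule for overlapping genes are not given in the sources used here, so overlapping genes and near-identical copies hold uncertain counts. Reads the authors left uncounted (24.7% to 27.5% per library) were removed. They include reads on no gene (12.5% to 15.2%).

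Genes that passed filterByExpr were fitted on their counts by edgeR 4.0.16 under R 4.3.3 (a robust quasi-likelihood fit with TMM factors, two-sided test, Benjamini-Hochberg adjustment over all genes tested) on the 6 libraries. Normalized counts are counts divided by the library's effective size relative to the mean of 22149190. The change with diet was the interaction term in a fit of all 12 libraries. Standard errors are of log2 fold changes. The steps were tested on simulated data. In those data few genes changed, evenly in both directions, so the choice of scaling was not tested by them. Alternatives were DESeq2 1.42.0, RLE and upper-quartile factors, library totals, no filter, at least 10 counts in every library, no fold threshold, fits over 12 libraries with and without the resubmission mark, and leaving out each library.

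The comparison and the 62 gene lists were chosen with earlier results of these data known. Named genes were the targeted and Y-linked genes, Xist, the 12 largest rises and falls among called genes with a mean of at least 100 normalized counts and no overlap (without predicted genes), the first 3 and the 3 most changed members per direction of each list, lists of at most 12 genes in full, the 5 smallest adjusted p of the interaction per direction, and the 10 most abundant genes per group. Kmo, Kynu, Foxa2, Pltp, Egr1, Mki67, Top2a, Ldha, Mmp10, Mmp13 and the 238 and 24 genes of the remainder were chosen after their values were seen. Symbols were matched to the annotation for all but 170. Some results are not reported here.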

Additional observations from a re-analysis of the deposited data

Results flagged for a closer look

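The difference between xenograft and liver changed with diet, by the interaction term of edgeR, for 1036 genes in the positive and 930 in the negative direction. The 5 genes with the smallest adjusted p in each direction are given here, as the log2 difference of the differences, with levels on a scale common to all 12 libraries. Each passed the same test under every alternative that tested it, which were 17 for Pnpla3 and Cyp4a31 and 18 for the others.

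More positive without tryptophan were Pnpla3, a lipid droplet acyltransferase (5.57), the inner nuclear membrane receptor Lbr (2.41), myelin basic protein Mbp (3.26), Wdr76 (2.31) and the centriole kinase Plk4 (2.89). For Pnpla3 the move was in the xenografts, with 4.21 to 6.43 on the complete diet and 120 to 243 without tryptophan, beside 74.1 to 184 and 84.5 to 99.9 in the livers. For Mbp it was in the livers, with 419 to 435 on the complete diet and 48.0 to 54.1 without tryptophan.

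More negative were Htatip2 (−2.48), the liver transcription factor Cebpb (−3.12), the lysosomal protease Ctsl (−3.15) and the P450 genes Cyp4a31 (−7.66) and Cyp2b9 (−7.30). For Ctsl the livers held 9912 to 11156 on the complete diet and 54428 to 93610 without tryptophan, and the xenografts 14375 to 21207 and 11165 to 14201. For Cyp2b9 the livers held 73.7 to 125 and 5761 to 15639, and the xenografts 13.5 to 57.9 and 18.8 to 32.4, at the remainder that the report describes. Cebpb moved in both models, with 649 to 849 and 2061 to 3783 in the livers and 1474 to 1615 and 573 to 763 in the xenografts.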

How the results depend on the processing

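No paired analysis was possible because the groups share no mouse numbers. Of 206 genes named in the comparison without tryptophan, 185 kept their direction and their side of the thresholds under every alternative that tested them. A further 9 lost the call under at least 1, and 11 gained one. Egr1 (−0.27), which ranged from −0.87 to 1.86 with 1 library left out, turned to 1.86 without liver 107. No gene was called in the opposite direction under any alternative. Leaving out a library gave 3187 to 3408 higher and 3046 to 3230 lower genes, and 467 to 1195 and 449 to 1386 in the test of change with diet. Library totals gave 5517 higher and 1974 lower, and 1825 and 437 in the test of change with diet, where DESeq2 gave 1473 more negative genes. Upper-quartile factors shifted the median of all genes by 0.15. Requiring 10 counts in every library left 12488 genes, with 2525 higher and 2480 lower. The list medians that turned with another scaling, beside those in the report, were those of NRF2 targets (−0.14 to 0.46), the unfolded protein response (−0.23 to 0.39) and YAP and Wnt targets (−0.11 to 0.51) with library totals, and of skeletal muscle (0.04 to −0.0007) and vascular endothelium with RLE factors. NRF2 and the YAP and Wnt targets also turned with upper-quartile factors (0.01 and 0.04). Beside the lists in the report, library totals moved the calls by over 1.5 times for macrophages (9 higher), collagens (2 lower), liver transcription factors (3 higher), sinusoidal endothelium (4 higher) and lipolysis (5 lower). With 10 counts in every library, fewer members were tested and called: 17 of 17 P450s, 4 of 8 adipocyte markers, 6 of 11 keratins, 3 of 5 mast cell markers and 0 of 3 homeobox genes. Depth limits genes with few reads: Tph1, Ido1, Hoxc8 and the bounds for B3galt2, Sult2a6 and Mmp7 rest on few reads, with the highest level of any of them in a library at 262 normalized counts (Sult2a6).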

Other observations

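Other gene groups of the same comparison are given as counts and medians with no explanation, beside 23.1% of genes higher and 20.7% lower and an overall median of 0.06. Of 23 cyclins, CDKs and inhibitors 12 were higher and 2 lower (median log2 fold change 1.35). Genes that differ between male and female livers were lower in 16 of 18 (−7.07). The livers came from males, the list was not split by the sex with the higher level, and the part of sex was not tested. The 3 major urinary protein genes tested were lower, 1 of them without liver 107. These genes have near-identical copies. Of 19 lipolysis and lipid storage genes 8 were lower and 4 higher (−0.80), and of 8 genes of the peroxisome proliferator-activated receptors 5 were lower and 1 higher (−3.32). The proteasome had 4 of 38 subunits lower and none higher (−0.63), and 2 lower and 1 higher with library totals.

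Among stress programs, 3 of 17 NRF2 targets were higher and 5 lower, and 1 of 21 unfolded protein response genes was higher and 5 lower. The NRF2 target Nqo1 was lower (−3.73) and the chaperone Hspa5 was not called (−0.06). The YAP and Wnt targets had 6 of 17 genes in each direction. Of 15 antigen presentation genes 5 were lower and 2 higher, with 3 lower without xenograft 35 or 36. Of 9 neutrophil markers 4 were higher, of 7 NK cell markers 2 were higher, of 5 B and plasma cell markers 1 was lower, and of 5 erythroid markers 3 were lower. Vascular endothelium had 5 of 18 markers higher and 2 lower, with a median of 0.03 that turned to −0.01 with RLE factors. Skin epithelium had 3 of 8 markers higher, and 1 without liver 105 or xenograft 37.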
